A study of Mus musculus with 4 samples.

Results

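The cells described here are mouse aortic fibroblasts that carried UMIs of Cilp, Hhip or C7 and none of Pi16. They were 77 of the 25593 cells kept from 4 single-cell RNA libraries. The members were chosen by their own UMI counts: a cell belonged to the set when its barcode had 500 or more genes and under 10% mitochondrial UMIs. It also needed Pdgfra 1 or more, Dcn 5 or more, Cilp plus Hhip plus C7 together 2 or more, and 0 UMIs of Pi16. Myh11 had to be under 5, Chad under 2 and Spp1 under 10, with 0 UMIs of the leukocyte gene Ptprc and of the endothelial gene Pecam1. A UMI is a tag that counts 1 captured mRNA molecule. The rule read these values from the same cells that are described, so the levels of the genes it used are descriptions and were not tested.

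Fibroblasts of the aortic adventitia make and remodel the outer collagen coat of the vessel. In the mouse, a fibroblast state found near large vessels in many organs carries Pi16, Dpp4, Cd55 and Ly6c1, and another state, rich in basement membrane genes, carries Col15a1 and Penk. Cilp encodes a matrix protein first known from cartilage, Hhip a surface protein that binds hedgehog ligands and limits their signal, and C7 a terminal complement component. The other 3 genes given as markers of the set are F3, tissue factor, which starts coagulation, Inmt, an N-methyltransferase of small amines, and Svep1, a large extracellular matrix protein.

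The 4 libraries were the aortic arch and the descending thoracic aorta of CNC-SMC-Cre;Smad4flox/flox;R26-tdT mice (cKO here) and of CNC-SMC-Cre;R26-tdT control mice, all aged 16 to 20 weeks. Controls therefore carried the same Cre and the same tdT reporter, and differed in the floxed Smad4 alleles. The name of the Cre holds CNC and SMC (smooth muscle cells) and does not name fibroblasts, which does not say that fibroblasts were outside its reach. Each group was 1 library, and the labels used here do not say how many mice it pooled, so a difference between groups has no replicate check. No p-value is given, and every interval is a 95% interval that covers counting error only.

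By library, 18 of 5842 kept cells were members in the cKO arch (0.308%, exact binomial interval 0.183 to 0.487) and 28 of 8644 in the control arch (0.324%, 0.215 to 0.468). In the descending aorta they were 17 of 5901 cKO cells (0.288%) and 14 of 5206 control cells (0.269%). The intervals overlap between all 4 libraries. Depth differed more: the members' median UMI count was 6943 in the cKO arch, 8498.5 in the control arch, 5053 in the cKO descending aorta and 3032 in the control descending aorta. Fibroblasts with 2 or more Pi16 UMIs (Pi16 2+ fibroblasts: the same gate, whatever their Cilp, Hhip and C7) numbered 167, 888, 766 and 632 in that order, with medians of 9034, 8250, 8210.5 and 10821.5 UMIs. Mitochondrial UMIs made up a median 3.46% of cKO arch members and 1.43% of control arch members. Between 33 and 65 barcodes of kept cells recurred in each pair of libraries, up to 1.01% of a library, and no barcode was a member in both.

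One member stood far apart. A control descending cell had 33802 UMIs, 38.8% of all UMIs of that library's members, with 60 UMIs of the mesothelial gene Msln and all of the members' Slpi and Upk3b UMIs in that library. No member of the other 3 libraries had an Msln UMI. The mesothelial markers summed to 351 UMIs over 8 genes in control descending members, and to 0 in the cKO arch, 9 in the control arch and 0 in the cKO descending members. Values that rest on this cell are given with and without it. In the control arch, 1 member had 96 UMIs of the smooth muscle gene Acta2, and the smooth muscle markers summed to 1722 CPM in control arch members, against 484 to 928 CPM in the other 3 libraries. No member of any library reached 3 UMIs of C1qa (macrophages) or 2 of Cldn5 (endothelium).

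The name of the set was checked first. Cilp, Hhip and C7 mark far more cells with Pi16 than without it. Of all 3348 gated fibroblasts, 666 (19.9%) had no Pi16 UMI and 1766 (52.7%) had 10 or more. Of the 1099 gated fibroblasts with 2 or more UMIs of the 3 genes, 77 (7.01%) had no Pi16 UMI and 724 (65.9%) had 10 or more. The cKO arch differed from the other libraries in this: 18 of its 72 such cells (25%, 15.5 to 36.6) lacked Pi16, against 28 of 366 (7.65%) in the control arch. In the descending aorta 17 of 325 cKO cells (5.23%) and 14 of 336 control cells (4.17%) lacked it. With every cell thinned to 3000 UMIs the shares became 37% (10 of 27 cells) for the cKO arch, 9.05% for the control arch, 7.22% in the cKO descending aorta and 2.81% in the control descending aorta. Among all gated fibroblasts, not thinned, 198 of 416 (47.6%) lacked Pi16 in the cKO arch and 170 of 1134 (15%) in the control arch. In the descending aorta these were 177 of 1007 cKO cells (17.6%) and 121 of 791 control cells (15.3%). The larger Pi16-negative share of the cKO arch was thus found over all gated fibroblasts, not only those with Cilp, Hhip and C7. The 3 genes differed when each was taken alone at 2 or more UMIs, over all libraries. Pi16 was absent from 10.6% of Hhip, 5.38% of Cilp and 4% of C7 cells. It had 10 or more UMIs in 43.8%, 75.1% and 78.7%, for Hhip below the 52.7% of all gated fibroblasts. In the cKO arch 9 of 18 Hhip cells (50%) lacked it. Pi16 itself, summed over Pi16 2+ fibroblasts, was 1704 CPM (UMIs per 1000000 UMIs of the set) in the cKO arch and 8394 CPM in control arch cells, and 6354 and 6515 CPM in the cKO and control descending aorta. Whether the lower Pi16 level sets the larger Pi16-negative share in the cKO arch was not tested.

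**Figure D1:**
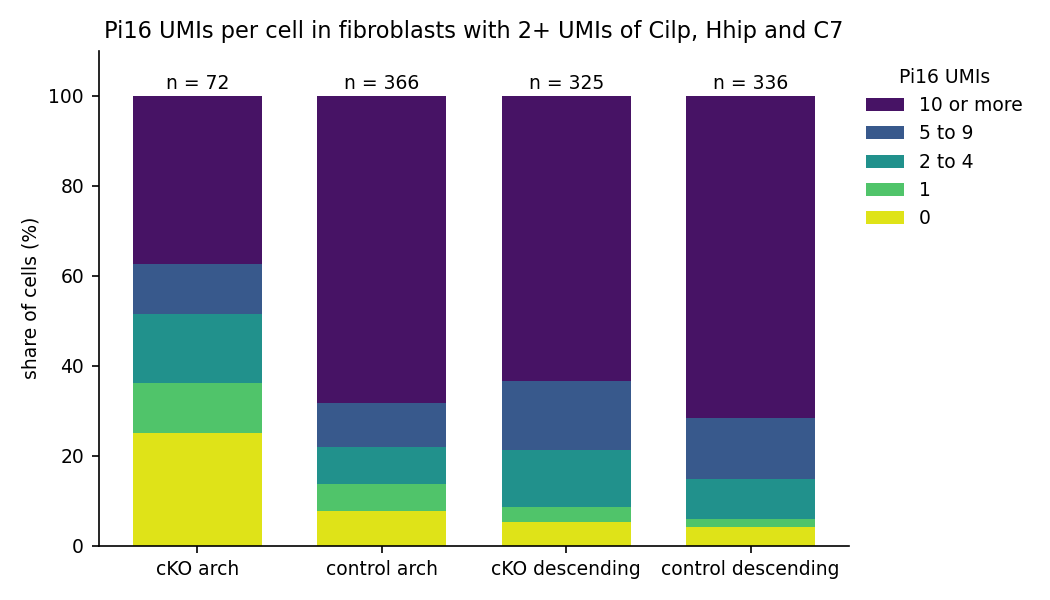
Share of fibroblasts (y axis, %) by number of Pi16 UMIs per cell (colour) among those with 2 or more UMIs of Cilp, Hhip and C7 together, for each library (x axis; n, number of cells). The lowest segment holds the members: 25% for the cKO arch, 7.65% for the control arch, and 5.23% (cKO) and 4.17% (control) for the descending aorta.

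The 3 genes rarely met in 1 member. Hhip alone was found in 29 of 77 members, Cilp alone in 17 and C7 alone in 17, and 14 (18.2%, 10.3 to 28.6) had more than 1 of them. Cilp with C7 was the commonest pair (9 cells), followed by Cilp with Hhip (3) and Hhip with C7 (2). Among Pi16 2+ fibroblasts with 2 or more of these UMIs, 432 of 975 (44.3%) had more than 1 of the genes. By library this was 21.7% in the cKO arch, 31.6% in the control arch, 45.5% in the cKO descending and 59.2% in the control descending aorta. Members had 0%, 25%, 17.6% and 28.6% in that order. The members' interval held the Pi16 2+ share in the control arch alone (10.7 to 44.9). Members came more from the arch and differed in depth, and the part of each was not tested. In the cKO arch, 9 members had Hhip alone, 6 Cilp alone and 3 C7 alone, and none of the 18 had 2 of the genes (interval up to 18.5%). The control arch had 10, 5 and 6 such cells and 7 with more than 1 gene. The counts were low: 26 of 77 members held exactly 2 UMIs of the 3 genes, and the most in 1 cell was 24 for Hhip, 23 for C7 and 15 for Cilp. In endothelial cells and leukocytes, which should lack these genes, 2 or more such UMIs were found in 0% to 1.1% of cells per library and class. In smooth muscle cells the share reached 1.05%, in Schwann cells 2.5% (1 of 40) and in mesothelial cells 4.17% (10 of 240). Modulated mesenchymal cells of the cKO arch, which are high in Spp1, had 3.68% (10 of 272).

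**Figure D2:**
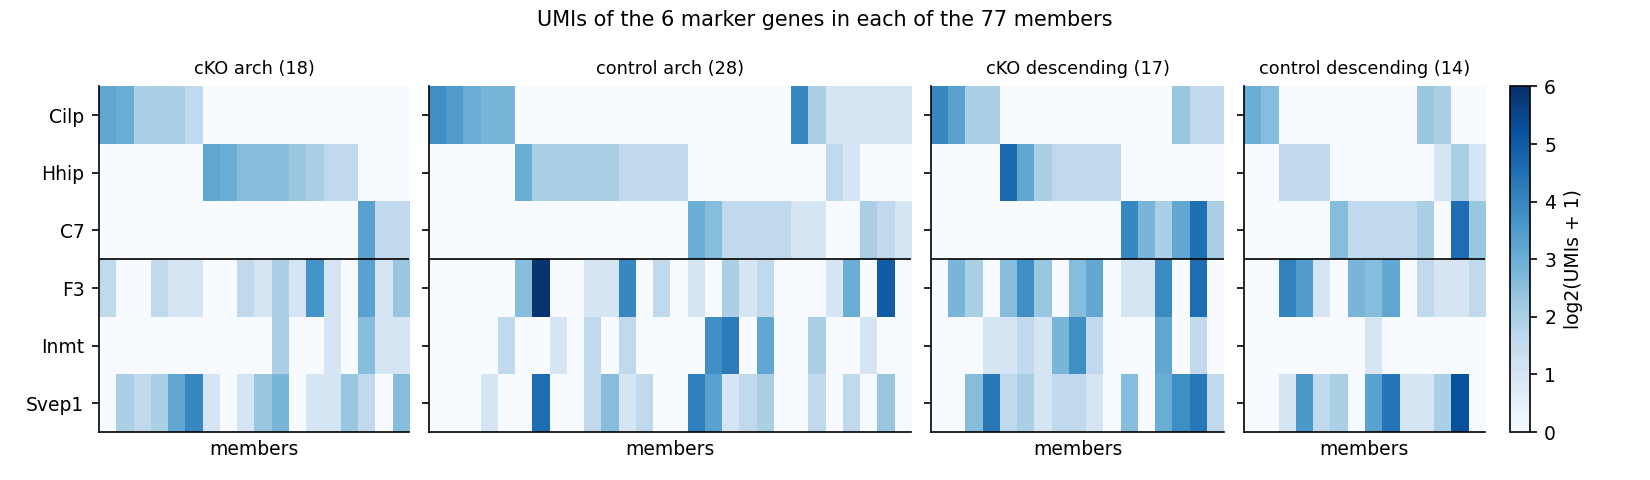
UMIs of the 6 marker genes (rows; log2(UMIs + 1) as colour) in each of the 77 members (columns), by library. Members are ordered by which of Cilp, Hhip and C7 they carry; the 3 rows below the line are the marker genes the rule did not use, and they are scattered over all 4 kinds of member.

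The other markers did not set the members apart as a group. F3 was detected in 47 of 77 members, Inmt in 24 and Svep1 in 51, and 13 had none of the 3 while 16 had all. Summed over members, F3 was 271 CPM in the cKO arch, 564 in the control arch, 762 in the cKO descending and 599 in the control descending aorta. Pi16 2+ fibroblasts had 255, 218, 566 and 705 CPM of F3 in the same order, which is 0.11, 1.37, 0.44 and -0.22 as the log2 ratio of members over Pi16 2+ fibroblasts. In the control arch 1 cell gave 45.7% of the members' F3 UMIs. The log2 ratios of Inmt were -0.28, 1.03, 0.56 and -2.57, the last from 1 UMI, and those of Svep1 were -0.23, 0.08, 0.75 and 1.39. Over all members, none of the 3 genes was higher than in Pi16 2+ fibroblasts in all 4 libraries. Without the mesothelial-gene cell this turned for F3: the control descending members then had 866 CPM (634 to 1155), above the 705 CPM of Pi16 2+ fibroblasts, and F3 was higher in members of every library, by little in the cKO arch. Svep1 was 1638 CPM (1312 to 2020) without that cell.

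Of the genes the rule used, Hhip was higher in members than in Pi16 2+ fibroblasts in every library. In members it had 278, 146, 395 and 127 CPM in the cKO arch, the control arch, the cKO descending aorta and the control descending aorta. Pi16 2+ fibroblasts had 26.2, 41.9, 119 and 91.1 CPM in that order. The rule asked for UMIs of these genes in members and not in Pi16 2+ fibroblasts, so this direction is a description. The control descending member value came from 11 UMIs, and its interval (63.3 to 227 CPM) includes the 91.1 CPM. Cilp and C7 went either way: C7 had 124 CPM in control arch members and 253 CPM in control arch Pi16 2+ fibroblasts, and Cilp had 219 and 526 CPM in the same sets of the control descending aorta. At the edge of the rule, the 26 members with exactly 2 UMIs had 571 CPM of F3, 315 of Inmt and 506 of Svep1, pooled over libraries. Cells just outside, with Pi16 0 and 1 such UMI (55 cells), had 398, 301 and 396 CPM, and those with 1 Pi16 UMI and 2 or more of the others (47 cells) had 727, 315 and 444 CPM. F3 of the cells just inside lay between the values of the outer sets. Its interval (462 to 697) lay above that of the cells with 1 such UMI (344 to 457) and overlapped the other (635 to 828). Svep1 was highest in the cells just inside. The intervals of Svep1, and those of Inmt, overlapped across all 3 sets.

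**Figure D3:**
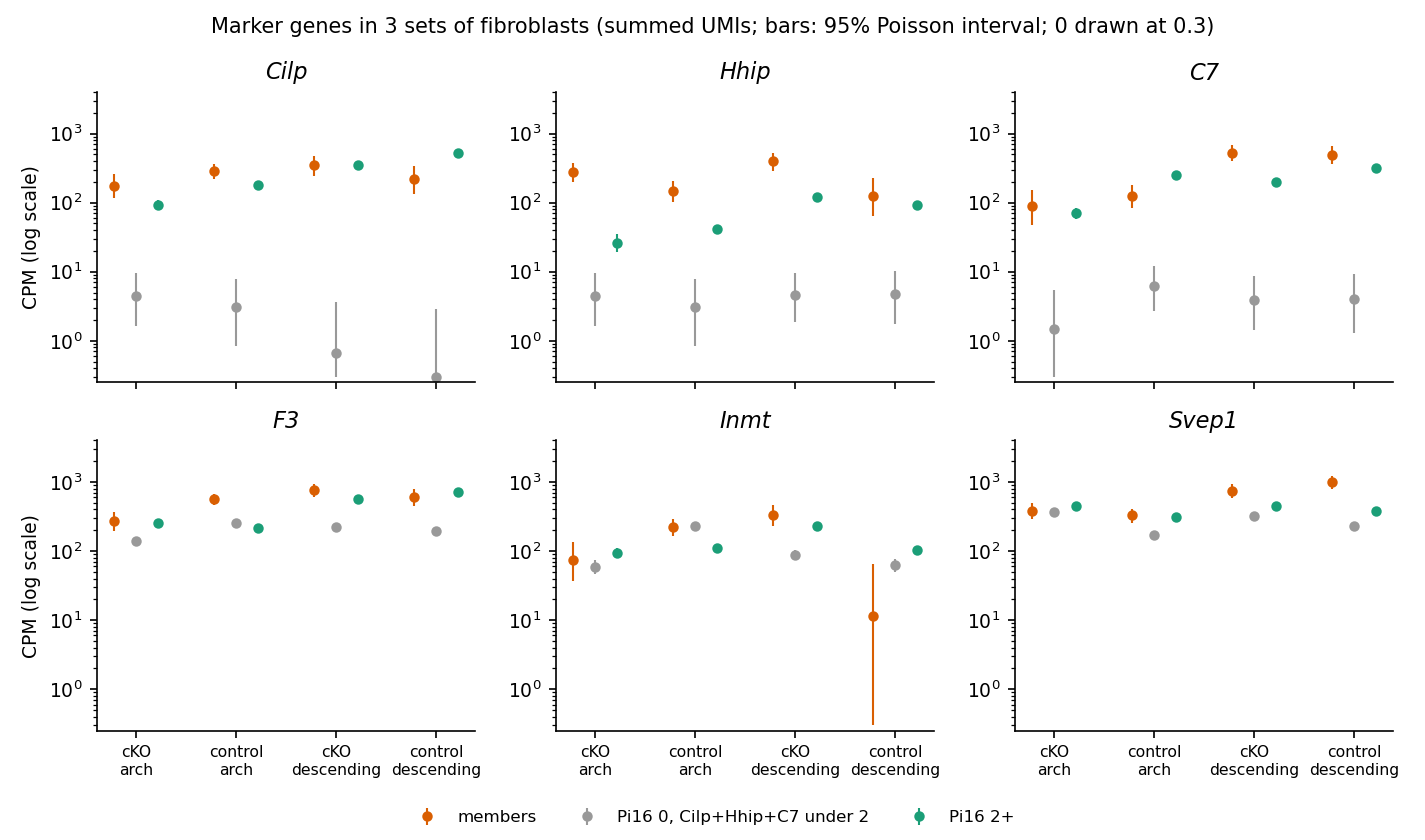
CPM (log axis) of the 6 marker genes in 3 sets of fibroblasts per library: members, fibroblasts with Pi16 0 and under 2 UMIs of Cilp, Hhip and C7, and Pi16 2+ fibroblasts. Points are summed UMIs and bars 95% Poisson intervals. Hhip, which the rule used to choose members, lies above Pi16 2+ fibroblasts in all 4 libraries (127 to 395 against 26.2 to 119 CPM). In the control descending library the intervals of Hhip overlap. F3, Inmt and Svep1, which the rule did not use, do not lie above in all 4 libraries.

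The other markers differed by kind of member. Pooled over libraries, F3 was 93 CPM in Cilp-only members (15 UMIs), 782 in Hhip-only, 465 in C7-only and 878 in members with more than 1 of the genes. Inmt was 18.5 CPM in Cilp-only members (3 UMIs) and 456 CPM in C7-only members. Mfap5, a microfibril protein of the Pi16 list, was 1863 CPM in Cilp-only members and 349 to 629 CPM in the other 3 kinds. By library, Cilp-only members had 1630 CPM of Mfap5 in the cKO arch (6 cells), 1828 in the control arch (5), 2318 in the cKO descending (4) and 1535 in the control descending aorta (2). The cKO descending ones had 4038 CPM of Igfbp6, and 1 of them gave 48.1% of the Igfbp6 UMIs of all Cilp-only members. Gdf10, a secreted TGF-beta family ligand, was 469 CPM in Cilp-only members and 813 to 1049 in the others. The kinds were drawn unequally from the libraries, so these pooled levels mix kind with genotype and region, and the part of each was not tested. All 12 Dpp4 UMIs of the members came from the mesothelial-gene cell, which also gave most of the C7-only members' Igfbp6.

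Summed over the members of a library, the level of the Pi16 programme was low beyond Pi16 itself. Genes were compared where the 2 sets together had 100 or more UMIs, and the rule's own genes and mitochondrial genes were left out. Pi16 0 was part of the rule, so the direction of genes that go with Pi16 is a description. Of the Pi16 fibroblast list (22 genes with Pi16), past 1.5-fold, 12 of 14 compared genes were lower and 0 higher in cKO arch members than in Pi16 2+ fibroblasts. The background in that library was 14.4% of 2237 genes lower. In the control arch 19 of 21 were lower and 0 higher (background 11.6% lower), in the cKO descending aorta 17 of 18 and 0 (15.8%), and in the control descending aorta 15 of 17 and 1 (26.4%). The median log2 ratios of the list were -1.40, -1.89, -2.12 and -2.38, against -0.08, 0.02, -0.06 and -0.20 over all genes compared.

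Mfap5 had 928, 781, 1276 and 726 CPM in members of the cKO arch, the control arch, the cKO descending aorta and the control descending aorta. In Pi16 2+ fibroblasts it had 1950, 2900, 2740 and 3080 CPM, and the highest member value lay below the lowest of Pi16 2+ fibroblasts. The Cilp-only members, given above, were nearer to Pi16 2+ fibroblasts in Mfap5 than these sums. Cd248, the surface glycoprotein endosialin, had 217, 222, 202 and 150 CPM in members and 469, 946, 990 and 1076 CPM in Pi16 2+ fibroblasts. Cd55, which restrains complement convertases, was lower by log2 ratios of -1.46, -1.38, -2.96 and -3.39 in the same order of libraries, on 17 or fewer member UMIs each. Dpp4, a surface peptidase, had 0 UMIs in the members of the cKO arch, the control arch and the cKO descending aorta, which allows up to 20.3, 13.3 and 27.5 CPM (3 counts of each total), and Pi16 2+ fibroblasts of these libraries had 34.9, 158 and 186 CPM. Igfbp6, which binds insulin-like growth factor 2, was the exception: its log2 ratio was -1.34 and -1.87 in the cKO and control arch, -0.08 in the cKO descending and 0.95 in the control descending aorta. The cKO descending value rested in part on the 1 Cilp-only cell given above. Without the mesothelial-gene cell 14 of 14 list genes compared in the control descending aorta were 1.5-fold or more lower (median log2 ratio -1.97). The median over the 768 genes compared without that cell was itself lower, at -0.49.

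**Figure D4:**
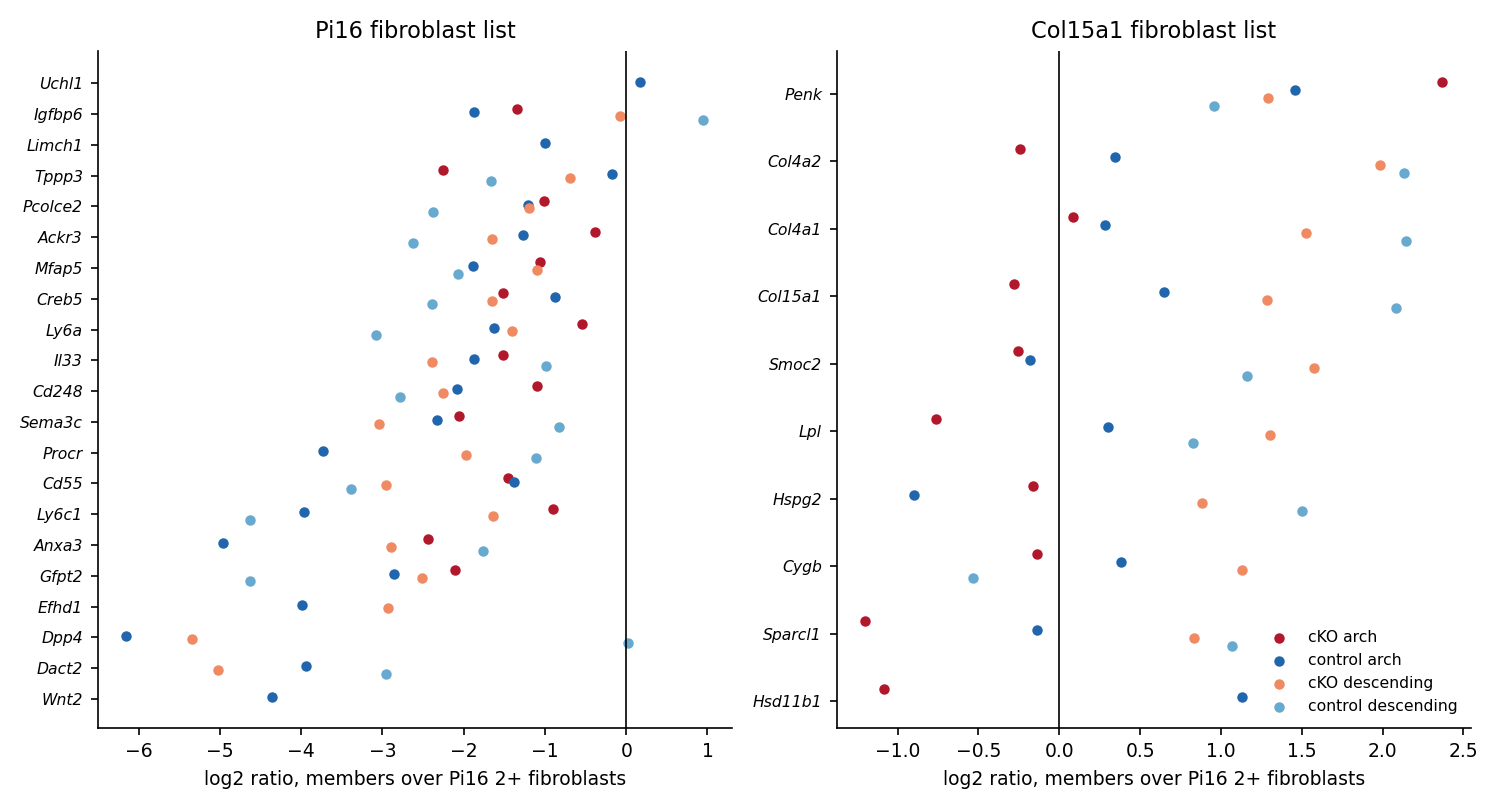
Log2 ratio of members over Pi16 2+ fibroblasts (x axis) for the compared genes of the Pi16 fibroblast list (left) and the Col15a1 fibroblast list (right), 1 point per library. Nearly all Pi16 list points lie below 0 in every library, and Col15a1 list points lie above 0 mainly in the 2 descending libraries. Dpp4 and Igfbp6 of the control descending library rest on 1 cell, and Igfbp6 of the cKO descending library in part on 1 other cell.

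Across all compared genes the main comparison could be made in the control arch, which had over 20 members. There 99 of 3447 genes (2.87%) were 2-fold or more higher in members and 194 (5.63%) were 2-fold or more lower. In the cKO arch, the cKO descending and the control descending libraries, with under 20 members each, 2.1%, 2.41% and 4.98% of compared genes were 2-fold or more higher and 5.19%, 6.55% and 12.1% 2-fold or more lower. With equal weight per cell, 69 of the 99 higher genes and 166 of the 194 lower ones stayed past 2-fold. Leaving out each gene's top cell takes more from 28 members than from 888 Pi16 2+ fibroblasts, so it bears on the higher genes alone: 52 of the 99 stayed, and 45 stayed under both. Among the highest of these 45 were Fmod, a collagen-binding proteoglycan (131 UMIs in 14 of 28 members, 581 CPM in members, log2 ratio 2.51), and Apoe, the lipid carrier (27 of 28 members, 6395 CPM in members and 1726 CPM in Pi16 2+ fibroblasts). Cntfr, a receptor subunit for ciliary neurotrophic factor, was found in 16 members (195 and 51.2 CPM), and Mdk, the heparin-binding growth factor midkine, in 16 (275 and 72.5 CPM). Thbs1, thrombospondin 1, had the highest ratio (log2 2.60), but from 3 of 28 members. Frzb, a secreted Wnt inhibitor, and Prg4, lubricin, had about 66% of their UMIs in 1 cell each.

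The same genes varied in the other 3 libraries. Fmod had log2 ratios of -0.13, 0.58 and -0.14 in the cKO arch, cKO descending and control descending libraries, and Apoe 0.59, 0.43 and 0.82. Meox2, a homeobox factor, had 0.78, 2.47 and 1.86 there and 2.11 in the control arch, and Thbs1 1.08, 2.13 and 3.24. For Thbs1, 1 cKO arch cell gave 72.4% of the 87 UMIs of all Hhip-only members, and the control descending members had 14 UMIs. Over the 1243 genes compared in all 4 libraries, with 10 or more members required, 17 (1.37%) were 2-fold or more lower in members in each library and 0 were 2-fold or more higher in each. At any size, 276 (22.2%) were lower in all 4 libraries and 111 (8.93%) higher in all 4. The entry filter given above, which favours genes high in Pi16 2+ fibroblasts, bears on these counts too. The 17 included Pcsk6, a proprotein convertase (log2 -2.69, -2.71, -1.51 and -3.28), Emilin2, an elastin-microfibril interface protein (-1.74, -3.86, -1.20 and -2.10), and Pcolce2, an enhancer of procollagen processing (-1.01, -1.21, -1.19 and -2.38). Ugdh and Ugp2, enzymes that make UDP-glucuronate and UDP-glucose for glycan synthesis, were also among them, as were Cd55, Cd248, Mfap5, Tmem100, Metrnl and Ppp1r14b. Immediate early genes, which are transcribed soon after a stimulus, were higher in control arch members (13 of 18 past 1.5-fold against a background of 9.83%, 0 lower, median log2 0.84) while in control descending members 1 of 13 was higher and 8 lower (background 26.4%, median -0.67). Without the mesothelial-gene cell 4 of 9 were lower there (median -0.53, beside -0.49 over all genes compared). With equal weight per cell 3 of 13 were lower and 2 higher (median -0.31, beside -0.46). The lower count in control descending members thus rested on that cell and on the weighting. The members of these libraries also differed in depth, as given above, and its part was not tested.

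The basement membrane side of the fibroblast range differed by region. Of the Col15a1 fibroblast list, 1 of 10 compared genes was 1.5-fold or more higher in cKO arch members than in their Pi16 2+ fibroblasts and 3 of 10 in control arch members. In the cKO descending members it was 9 of 9, and in the control descending members 8 of 9. The background for 1.5-fold or more higher was 9.7%, 9.83%, 9.95% and 11.3% in that order of libraries. Col15a1 had 190, 408, 771 and 1787 CPM in members and 234, 262, 319 and 422 CPM in Pi16 2+ fibroblasts. Col4a1, a chain of the main basement membrane collagen, had 914, 568, 1377 and 2605 CPM in members and 865, 468, 479 and 590 CPM in Pi16 2+ fibroblasts. Penk, proenkephalin, was higher in members of every library (log2 2.37, 1.46, 1.29 and 0.96), but single cells carried much of it. Pooled over libraries, 1 cell gave 57.7% of the Penk UMIs of Cilp-only members and 37.3% of those of Hhip-only members. In C7-only members 1 cell gave 52.5%, and in members with more than 1 of the genes 60%. Without the mesothelial-gene cell the control descending values were 2918 CPM of Col15a1 and 4198 CPM of Col4a1. Then 8 of 9 list genes were still higher (median log2 ratio 1.81, beside -0.49 over all genes compared). Against the other Pi16-negative fibroblasts of their own library (under 2 UMIs of Cilp, Hhip and C7), 2 of 9 list genes were 1.5-fold or more higher in cKO descending members (background 11.7%) and 8 of 9 in control descending members (11.8%). That remainder holds mesothelial cells in every library but the cKO arch, so it is not a clean fibroblast set.

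Smad4, the floxed gene, which carries TGF-beta and BMP receptor signals to the nucleus, was counted first in the comparison of genotypes. Members had 94.8 CPM in the cKO arch (14 UMIs), 93.2 in the control arch (21), 174 in the cKO descending (19) and 115 in the control descending aorta (10). The log2 ratio of cKO over control was 0.04 in the arch (-1.06 to 1.07) and 0.57 in the descending aorta (-0.58 to 1.87). The libraries count the 5′ ends of transcripts and the labels do not say which exons were floxed, so this count need not report the deletion. In Pi16 2+ fibroblasts the ratios were -0.51 and 0.09.

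In the arch, cKO members had more Comp, Aspn, Vcam1 and C4b than control members and less Gsn, Igf1, Dpep1 and Lpl. Of 528 genes compared, 35 (6.63%) were 2-fold or more higher and 38 (7.2%) 2-fold or more lower in cKO members. With equal weight per cell and with the top cell of each gene left out, 23 and 23 of these stayed past 2-fold. In Pi16 2+ fibroblasts 4.1% of 6774 genes were 2-fold or more higher and 4.81% 2-fold or more lower in the cKO arch. Comp, a cartilage matrix protein, had the highest ratio after Cxcl9, of which 1 cell held 99.3%: cKO members held 0 to 270 UMIs per cell with a median of 12, and control members 0 to 4 with a median of 0. It was detected in 14 of 18 cKO members (4172 CPM) and in 4 of 28 control members (39.9 CPM), a log2 ratio of 6.63 (5.77 to 7.84), or 6.60 with the top cells left out. In the cKO arch Comp was 46.7 CPM in endothelial cells and 77.4 CPM in leukocytes. It was 179 CPM in smooth muscle cells there (18.8 CPM in the control arch) and 2107 CPM in modulated mesenchymal cells, which are high in Spp1. The difference was not limited to the members: Comp was 1350 CPM in cKO arch and 113 CPM in control arch Pi16 2+ fibroblasts, and 4099 and 61.1 CPM in the remaining Pi16-negative fibroblasts.

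Other matrix and immune genes followed in the arch members. Aspn, asporin, a small proteoglycan that binds collagen, had 779 CPM in cKO and 71 CPM in control members, and Vcam1, a leukocyte adhesion molecule, had 786 and 48.8 CPM. C4b, complement component 4, had 921 and 133 CPM. Their log2 ratios with equal weight per cell were 3.13, 4.07 and 2.44. Mmp3, stromelysin, had 1748 CPM in cKO members (8 of 18 cells) and 359 CPM in control members, where 1 cell gave 97.5% of the UMIs. Another pair near the top were largely 1 cell: Sfrp4, a secreted Wnt modulator, with 84.4% of its cKO UMIs, and Fn1, fibronectin, with 72.1%. Without top cells their log2 ratios were 2.37 and 2.26, against 4.09 and 3.19 over all cells. Cxcl9, an interferon-induced chemokine, had 142 UMIs in cKO members, of which 1 cell held 99.3%, and 0 in control members. In Pi16 2+ fibroblasts the log2 ratios were 1.02 for Aspn, 1.63 for Vcam1, 1.92 for C4b and 4.24 for Mmp3. Collagen chains were 1.5-fold or more higher in 10 of 12 (background 15.2% of 528 genes) and lower in 1, Col15a1, with a median log2 ratio of 0.90 beside -0.06 over all genes compared. With equal weight per cell 7 of 12 were higher and 0 lower (median 0.77, beside -0.15 over all genes compared). In Pi16 2+ fibroblasts, by summed UMIs, 9 of 22 were higher (background 9.33%) and 3 lower.

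Genes lower in cKO arch members were widely detected in the controls. Gsn, the actin-severing protein gelsolin, had 3509 CPM in cKO and 18338 CPM in control members and was found in all 46 of them (log2 -2.38, -2.52 to -2.25). Igf1, insulin-like growth factor 1, was detected in 3 of 18 cKO members (47.4 CPM) and 18 of 28 control members (608 CPM). Dpep1, a membrane dipeptidase, had 81.3 and 683 CPM, Lpl, lipoprotein lipase, 81.3 and 493 CPM, and Aldh2, an aldehyde dehydrogenase, 108 and 453 CPM. Their log2 ratios were -3.59 for Igf1, -3.02 for Dpep1, -2.55 for Lpl and -2.03 for Aldh2, and in Pi16 2+ fibroblasts -0.92, -2.16, -1.48 and -1.09. Eln, elastin, had 515 CPM in cKO and 1744 CPM in control members (log2 -1.75) and a log2 ratio of 0.18 in Pi16 2+ fibroblasts; in both member sets over 50% of its UMIs came from 1 cell. Immediate early genes were 1.5-fold or more lower in 8 of 10 (background 18.4%) and higher in 0, led by Zfp36 (-1.60) and Dusp1 (-1.55). With equal weight per cell 6 of 10 were lower and 1 higher (median -0.72, beside -0.15 over all genes compared). Of 22 such genes compared in Pi16 2+ fibroblasts, 4 were higher and 4 lower (background 13.2% lower). F3 and Inmt were lower in cKO members (log2 -1.04 and -1.52), and Svep1 was near equal (0.21).

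**Figure D5:**
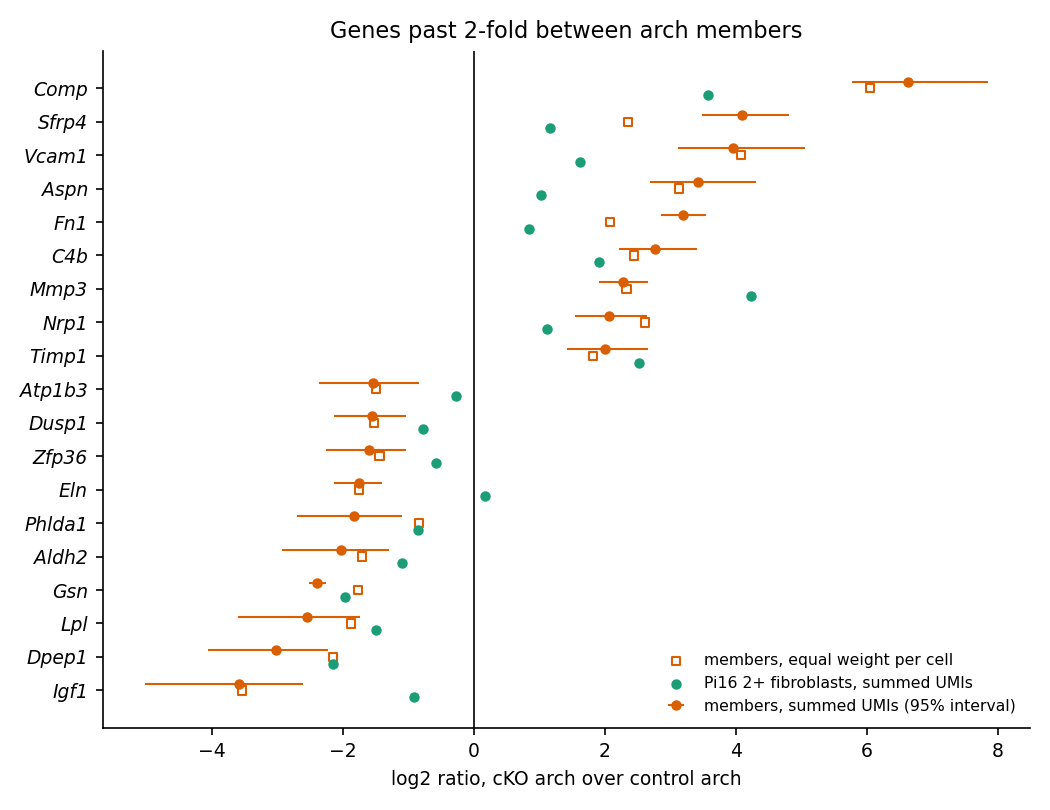
Log2 ratio of cKO arch over control arch (x axis) for the named genes past 2-fold in members (rows): members by summed UMIs with the 95% counting interval, members with equal weight per cell, and Pi16 2+ fibroblasts. Comp (6.63) and Gsn (-2.38) lie on the same side in both sets of cells, while Eln is -1.75 in members and 0.18 in Pi16 2+ fibroblasts.

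In the descending aorta the genotype comparison rested on 17 cKO and 14 control members. Of 249 genes compared, 19 (7.63%) were 2-fold or more higher and 19 (7.63%) 2-fold or more lower in cKO members, beside a median log2 ratio of 0.14 over all genes compared. Past 1.5-fold, 18.1% were higher and 10.8% lower in members, and 0.78% and 1.68% of 6668 genes in Pi16 2+ fibroblasts, of which 0.21% and 0.555% passed 2-fold. Equal weight together with leaving out the top cells kept 7 of the higher and 5 of the lower. Prrx1, a mesenchymal homeobox factor, had 826 CPM in 15 of 17 cKO members and 196 CPM in 7 of 14 control members (log2 2.04; 1.33 without the mesothelial-gene cell). Lgals1, galectin 1, had 2039 and 622 CPM (1.70; 1.5 without it). Col15a1 was lower in cKO members, with 771 and 1787 CPM (-1.21; -1.92 without it), and so was Igfbp5, which binds insulin-like growth factors, with 955 and 5683 CPM (-2.57; -2.07 without it). The Igfbp5 ratio turned to 0.68 when a summed 3 or more UMIs of Cilp, Hhip and C7 were required. The ratios in Pi16 2+ fibroblasts were 0.20 for Prrx1, 0.13 for Lgals1, -0.40 for Col15a1 and 0.35 for Igfbp5. The lowest ratios of Ifi27l2a, Ly6e, H2-K1 and Rarres2 were carried by that 1 cell and turned sign without it. Comp had 82.6 CPM in cKO and 80.7 CPM in control descending members.

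Region was compared within each genotype. Of 429 genes, control arch members had 57 (13.3%) 2-fold or more higher and 43 (10%) 2-fold or more lower than control descending members, beside a median log2 ratio of 0.32 over all genes. Without the mesothelial-gene cell 130 were higher and 47 lower, with equal weight per cell 181 were higher and 50 lower, and scaling by median ratios gave 34 higher and 58 lower, so the higher count depended on these choices. In Pi16 2+ fibroblasts 1.56% of 6729 genes were 2-fold or more higher in the arch and 1.47% lower, and 3.39% were 1.5-fold or more higher. Smoc1, a matricellular calcium-binding protein, had 617 CPM in 15 of 28 arch members and 46.1 CPM in 1 of 14 descending members (log2 3.58, and 1.93 in Pi16 2+ fibroblasts). Apoe had 6395 and 1187 CPM (2.42, and 1.35), Sfrp2, a secreted Wnt modulator, 2592 and 231 CPM (3.46, and 0.28), and Timp3, an inhibitor of matrix proteases, 2570 and 357 CPM (2.82, and 0.53). Basement membrane genes were lower in the arch: Hspg2, perlecan, had 204 and 1429 CPM (-2.80), Col4a1 568 and 2605 CPM (-2.19) and Col15a1 408 and 1787 CPM (-2.13). In Pi16 2+ fibroblasts these were -0.40, -0.34 and -0.69. Without the mesothelial-gene cell the 3 were -3.49, -2.88 and -2.83 in members. Collagen chains were 1.5-fold or more lower in 10 of 12 (background 15.2% of 429 genes) and higher in 0, with a median of -1.41, and in Pi16 2+ fibroblasts 12 of 22 were lower (background 4.16%) and 1 higher (median -0.65). The mix of Cilp, Hhip and C7 cells and the median depth both differed between these libraries, as given above, and their part was not tested.

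Between the cKO libraries, 34 of 334 genes (10.2%) were 2-fold or more higher and 28 (8.38%) 2-fold or more lower in arch members, and 4.43% and 5.92% of 6824 genes in Pi16 2+ fibroblasts. Past 1.5-fold, 20.4% of the members' genes were higher. Cxcl9 had the highest ratio, again from that 1 cell, and Comp came next (4172 CPM in 14 of 18 arch members and 82.6 CPM in 3 of 17 descending members, log2 5.58), with Sfrp2 (1605 and 73.5 CPM), Mmp3 (1748 and 82.6 CPM) and Ccn2, a matricellular growth factor modulator (1795 and 220 CPM, and a log2 ratio of 1.42 in Pi16 2+ fibroblasts). Gsn had 3509 CPM in arch and 32214 CPM in descending members (-3.20, and -1.79 in Pi16 2+ fibroblasts), and Smoc2, a relative of Smoc1, 217 and 1442 CPM (-2.72, and -0.89). All 7 compared genes of the Col15a1 list were 1.5-fold or more lower in the arch members (median -1.28, background 15% of 334 genes). Of 10 compared in Pi16 2+ fibroblasts, 3 were lower (background 14.8%) and 2 higher. Sfrp2 was thus higher in the arch than in the descending members in both genotypes, and basement membrane collagen lower. The 2 region comparisons share no library with each other, but each shares 1 with each genotype comparison.

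In the mouse genome (mm10, GENCODE annotation), Cilp lies on chromosome 9 at 65265180 to 65280605 on the plus strand, Hhip on chromosome 8 at 79965851 to 80058006 on the minus strand and C7 on chromosome 15 at 4988762 to 5063740 on the minus strand. F3 is on chromosome 3 (121723537 to 121735048), Inmt on chromosome 6 (55170626 to 55175043), Svep1 on chromosome 4 (58042442 to 58206859) and Pi16 on chromosome 17 (29317680 to 29330593). Counts are per gene over the whole gene model, not per exon.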

How the data were processed

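Per the labels' protocols, aortic cells were loaded on a 10x Chromium and made into 5′ gene expression libraries. The authors deposited raw UMI counts per gene and called cell barcode, aligned to mm10 with Cell Ranger 6.1.1 per the submitters' processing notes (6.1.2 per the file headers). The annotation release was not given in the sources used here. In the cKO arch the file lists 28693 features and the other 3 list 32285, so the 27734 shared identifiers were used (99.5% to 99.6% of UMIs). The depth was 49407811, 98866674, 50922575 and 50285593 UMIs in the cKO and control arch and the cKO and control descending aorta.

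Members and gene lists were chosen with earlier results of these data known. UMIs were summed over a set of cells and given as CPM. Log2 ratios used a prior of 0.5 UMI. Genes entered a comparison with 100 or more UMIs in both sets together and 20 or more CPM in either. They also needed 10 or more UMIs expected in the smaller set at the level of both sets pooled. No test was run: with 1 library per group the ratios compare these libraries. Intervals are exact (Poisson, conditional binomial, Clopper-Pearson). The text names the genes with the largest ratios past 2-fold, up to 15 in each direction against Pi16 2+ fibroblasts and 10 between libraries, leaving out ribosomal, predicted, haemoglobin, immune receptor and sex-linked genes. Genes found mainly in other cell classes were named apart, list members were the furthest from 0, and Smad4, the 6 markers and the rule's genes were always given. Which of these are given in full, the genes given by kind of member and the genes of single cells were chosen after their values were seen, as were the comparison over all 4 libraries with 10 or more members and the values without the mesothelial-gene cell. Doublets were not removed in the main values. Scrublet (scanpy 1.11.5) scores left out 265 to 642 cells per library as an alternative, 1 of them a member. Its automatic call marked under 0.06% of cells in 2 libraries and was not used. Ratios were tried on simulated summed counts with known fold changes and Poisson error. That simulation did not model single cells that hold most of a gene's UMIs, so it does not bear on such genes. Python 3.11.15, numpy 2.4.6 and scipy 1.17.1 were used.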

Additional observations from a re-analysis of the deposited data

Results flagged for a closer look

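RFP was listed in the cKO arch library and not used in the comparisons above, so it was looked at in its members. A level of 16 or more RFP UMIs (RFP-high) was found in 7 of 18 members (38.9%, 17.3 to 64.3). In the same library 49 of 167 Pi16 2+ fibroblasts (29.3%), 67 of 180 remaining Pi16-negative fibroblasts (37.2%) and 32.4% of smooth muscle cells were RFP-high. Among leukocytes the share was 0.341%, and among endothelial cells it was 0 of 138, an exact interval up to 2.64%. Smad4 was 91 CPM in RFP-high members (6 UMIs) and 99.7 CPM in members with under 8 RFP UMIs (8 UMIs). Smad4 of Pi16 2+ fibroblasts in that library was 33 CPM in RFP-high cells (20.5 to 50.5) and 71.9 CPM in those with under 8 RFP UMIs (57.1 to 89.4). RFP-high members had 6843 CPM of Comp, against 2056 CPM in those with under 8, and 1 RFP-high member held 270 of their 451 Comp UMIs. Pi16 2+ fibroblasts went the other way, with 255 CPM of Comp in RFP-high cells and 2035 CPM in those with under 8. The labels give R26-tdT and do not say that the RFP feature is that reporter.

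Of 241 genes compared between genotypes in both regions, 20 were 2-fold or more higher and 15 lower in cKO arch members. In cKO descending members these were 18 and 15. Past 2-fold in both regions, 3 genes were higher in both (Fn1, Sfrp4 and Ly6a) and 2 lower in both (Col15a1 and Csrp2). Another 5 were higher in the arch and lower in the descending aorta, and 1 went the other way. The difference between regions was not tested. With cKO over control as log2 ratios, C4b was 2.77 for arch members and -3.20 for descending members, a difference of 5.97, and -2.39 in the descending aorta without the mesothelial-gene cell. Ifi27l2a differed by 4.36 (1.27 and -3.08), H2-K1 by 4.10 (1.81 and -2.28), B2m by 3.49 (1.96 and -1.54) and H2-D1 by 3.26 (1.82 and -1.44). In the descending aorta these 4 were 1.20, 0.08, -0.28 and -0.09 without that cell. Dpep1 was -3.02 for arch members and 1.19 for descending members, a difference of -4.21, and 0.48 in the descending aorta without that cell.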

How the results depend on the processing

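No paired analysis was possible because each group is 1 library. Of 1501 values of single named genes under the alternatives, 1252 stayed within the counting interval, 234 moved out of it and 15 reversed. In the descending genotype comparison these reversals were Ifi27l2a (0.14 with a rule sum of 3 or more, 0.89 without top cells, 1.20 without the mesothelial-gene cell), Ly6e (0.58, 0.019 and 0.13), Rarres2 (0.14, 0.0081 and 0.24), H2-K1 (0.020 with 3 or more and 0.083 without the cell) and Igfbp5 (0.68 with 3 or more). With cells thinned to 3000 UMIs, Sfrp4 was -0.55 and Apod -0.19 there. In the arch, 1 of the entries named Ccl19 was -0.26 without its top cell.

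Counts of genes are given as higher and lower in members. Requiring a summed 3 or more UMIs of Cilp, Hhip and C7 gave shares of 0.208% in the control arch and 0.134% in the control descending aorta, 6 genes lower in all 4 libraries, 11 higher and 5 lower between descending genotypes and 20 lower between control regions. Thinning, which left shallower cells out, gave a share of 0.13% in the control descending aorta. It gave 26 and 79 genes in the control arch against Pi16 2+ fibroblasts, 4 lower in all 4 libraries, 10 and 6 between arch genotypes, 3 and 12 between descending genotypes, 34 and 11 between control regions and 8 and 6 between cKO regions. A minimum of 50 UMIs per gene, which admits more genes, gave 62 and 82, 39 and 43, 114 and 89, and 83 and 55 in these 4 library comparisons. With 200 UMIs they were 20 and 10, 7 and 10, 34 and 22, and 20 and 10. Leaving out each gene's top cell gave 52 and 334 against Pi16 2+ fibroblasts, 36 lower in all 4 libraries, 29 and 7 between descending genotypes and 143 higher between control regions. Equal weight per cell gave 56 higher between descending genotypes and 181 higher between control regions, and the mesothelial-gene cell left out gave 130 there. Median-of-ratios scaling gave 34 higher between control regions and 1 higher in all 4 libraries. That count was 2 against Pi16 2+ fibroblasts without Cilp, Hhip and C7 and 1 without the mesothelial-gene cell. With each library left out in turn it was 0 to 1, and the genes lower in all remaining libraries were 18 to 31, the most without the cKO arch. The cause of these moves was not tested. All other counts stayed within 1.5 times, and the direction of Comp, Gsn and Igf1 between arch genotypes was kept under every alternative that compared them (Igf1 was not compared with 200 UMIs per gene). The small number of members, with 86754 to 225327 UMIs per library, limits which genes could be compared.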
